A study of Mus musculus with 4 samples.

Results

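Ribosomal proteins of the cytosol build the large and the small subunit of the ribosome around the ribosomal RNAs. The cell makes them in near-equal amounts, and their genes are among the most strongly expressed in growing cells. Their mRNAs typically begin with a run of pyrimidines, the terminal oligopyrimidine (TOP) tract, through which mTOR signalling and the RNA-binding protein Larp1 control their translation. The genes described here were all those whose symbol begins with Rpl or Rps followed by a number, with Rplp or with Rpsa, except the S6 kinases. This gave 69 of the 19504 genes with a named row, 42 of the large subunit and 27 of the small subunit. Of these, 55 are core ribosomal protein genes and 14 are paralogs, retrocopies or other genes that share the name. These 14 include Rps19bp1, which encodes a binding partner of Rps19, and Rps23rg1, a retroposed gene, so the set is not purely ribosomal. Of 77 core genes listed, 22 were not analysed here.

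The cells were labelled as mouse group 3 innate lymphoid cells (ILC3s), sorted as lineage-negative, CD90-high and CD45-low. ILC3s are lymphocytes of barrier tissues that make IL-22 and IL-17 without rearranged antigen receptors. RNA of each genotype was measured on 1 Affymetrix array: circZbtb20-/-, lacking a circular RNA made from Zbtb20, with its paired circZbtb20+/+, and Nr4a1-/-, lacking an orphan nuclear receptor, with its paired Nr4a1+/+. The labels used here give neither the animals' age, strain and number nor the tissue, the lineage markers or how each allele was made. With 1 array per genotype there was no replicate error and no test, and so few arrays limit the precision. All values are deposited log2 values, and all differences are log2 differences, each knockout minus its own wild type, or the Nr4a1 wild type minus the circZbtb20 wild type. A gene is called higher or lower where the difference was at least 1, a 2-fold size, and its higher value reached the median of that array. In bulk RNA, fewer cells of a type and less RNA per cell cannot be told apart.

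Facts of the arrays that bear on these genes were read first. Array medians lay between 4.34 and 4.51. No ribosomal protein gene stood at 19.93, the highest value of the table. Nr4a1 was at 11.63 in its knockout, above that array's median of 4.34, against 18.11 in its wild type. Nr4a1 was also lower in the circZbtb20 knockout, at 15.98 against 19.93 in its wild type. The Nr4a1 knockout array differed from the others in its cell markers: 11 measured T cell markers had a median of 16.79 and lay between 11.64 and 18.92 there, against 6.42 and 5.0 to 8.95 in its wild type, while 11 ILC3 markers had medians of 5.48 and 15.43 and ranges of 3.0 to 19.93 and 9.39 to 19.93. On the array labelled Nr4a1 knockout 8 of these 11, Kit, Il23r and Ncr1 among them, lay between 3.0 and 5.59, which goes against the label's cell type. Others did not: Il22 was at 19.93, as in both wild types, Il7r at 13.40 and Tmem176b at 8.02. In the circZbtb20 knockout these medians were 5.48 for T cells and 17.63 for ILC3s, against 4.72 and 16.21 in its wild type. Markers of pancreatic acinar cells, 10 measured, had a median of 4.645 in the circZbtb20 knockout against 12.415 in its wild type, and of 4.16 and 8.50 in the Nr4a1 knockout and its wild type. The part of these markers in the ribosomal protein values was not tested.

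Many promoters of these genes hold short motifs that the choice by symbol did not use. In the RefSeq promoter table, which holds 250 bases before and 50 after each annotated start on GRCm38.p6, 56 of the 69 genes were found. The letters CTTTC, a common core of the TOP tract, were searched on the gene's own strand within 50 bases on either side of the start and were present in 28 of the 56 genes, or 50%, against 14.6% of all 27025 genes in the table. The letters CCGGAAG, part of the binding motif of ETS factors such as GABPA, were searched on both strands over all 300 bases and were present in 21 of the 56 genes, or 37.5%, against 9.93% of all genes. A gene counted as a match if any of its annotated starts matched. The reference was every gene with a promoter there, not only genes on the array or of like level. The motifs can overlap by 1 letter. A match is a description of the letters and not a mapped start or a bound site.

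The windows printed here, 50 bases before to 20 bases from the annotated start, belong to genes that differed in opposite directions in the circZbtb20 knockout. The choice of genes left out Rpl17 and Rps14 whatever their differences. Among the other genes, the lowest and the highest with a single annotated start are printed. With them stand 3 called genes from each end with CTTTC in the window. Capitals mark CTTTC and CCGGAAG or its reverse complement.
Rpl39, chrX:37085203-37085272, minus strand: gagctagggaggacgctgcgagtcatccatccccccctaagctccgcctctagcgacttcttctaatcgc
Rps27rt, chr9:114982720-114982789, minus strand: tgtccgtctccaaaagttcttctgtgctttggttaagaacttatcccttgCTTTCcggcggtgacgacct
Rpl28, chr7:4792915-4792984, plus strand: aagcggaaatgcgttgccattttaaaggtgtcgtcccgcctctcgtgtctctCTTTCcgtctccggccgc
Rps10, chr17:27635225-27635294, minus strand: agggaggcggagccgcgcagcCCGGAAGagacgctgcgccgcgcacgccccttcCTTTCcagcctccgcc
Rpl37a, chr1:72711210-72711279, plus strand: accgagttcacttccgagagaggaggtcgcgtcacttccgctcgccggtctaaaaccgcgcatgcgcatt
Rpl35, chr2:39005112-39005181, minus strand: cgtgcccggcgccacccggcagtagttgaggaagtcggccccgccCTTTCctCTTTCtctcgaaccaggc
Rpl38, chr11:114668530-114668599, plus strand: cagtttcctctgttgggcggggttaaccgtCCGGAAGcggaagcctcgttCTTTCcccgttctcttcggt
Rpl5, chr5:107900478-107900547, plus strand: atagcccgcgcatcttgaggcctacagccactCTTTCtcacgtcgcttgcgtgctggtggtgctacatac
The first 4 genes were lower and the last 4 higher in the circZbtb20 knockout. Windows with CTTTC stand in both directions because they were chosen so. The letters lie next to the start in Rpl28, with a difference of -1.88, and in Rpl38, with 1.5. Over all called genes with a promoter, CTTTC was present in 9 of 14 that were higher and in 10 of 14 that were lower, and CCGGAAG in 7 and in 4. No match was found in the windows of Rpl39 and Rpl37a.

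The circZbtb20 comparison sets the knockout beside its wild type, and these arrays also differed in the acinar cell markers given above. Ribosomal protein genes differed in both directions on the knockout array. Of the 42 genes of the large subunit 11 were higher and 13 lower, and of the 27 of the small subunit 9 were higher and 6 lower. The same rule called 27.3% higher and 19.4% lower among the 11122 genes of all kinds whose higher value reached the array median, here called genes past the filter. Of the 69 genes, 67 passed it in every comparison, Rps4l in all but the Nr4a1 pair and Rpl3l in none, and medians and spreads are over all 69. The median difference was -0.115 for the large subunit and 0.23 for the small subunit, against 0.17 over all genes past the filter. The large subunit median was -0.635 against the other wild type, with 17 genes lower, and -0.61 over core genes alone. Differences ran between -7.05 and 4.57 in the large subunit and between -5.13 and 3.86 in the small subunit. For all 69 genes their SD was 2.17, against 1.63 over all genes past the filter. The spread was also wide among genes of like signal, and why was not tested. The range of mean levels between 10.03 and 18.24 holds the central part of these genes. All 1545 genes of that range had an SD of 2.23, with 35.3% called higher and 26.1% lower. The 55 ribosomal protein genes among them had an SD of 2.35, with 34.5% higher and 27.3% lower, close to the whole of that range.

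**Figure D1:**
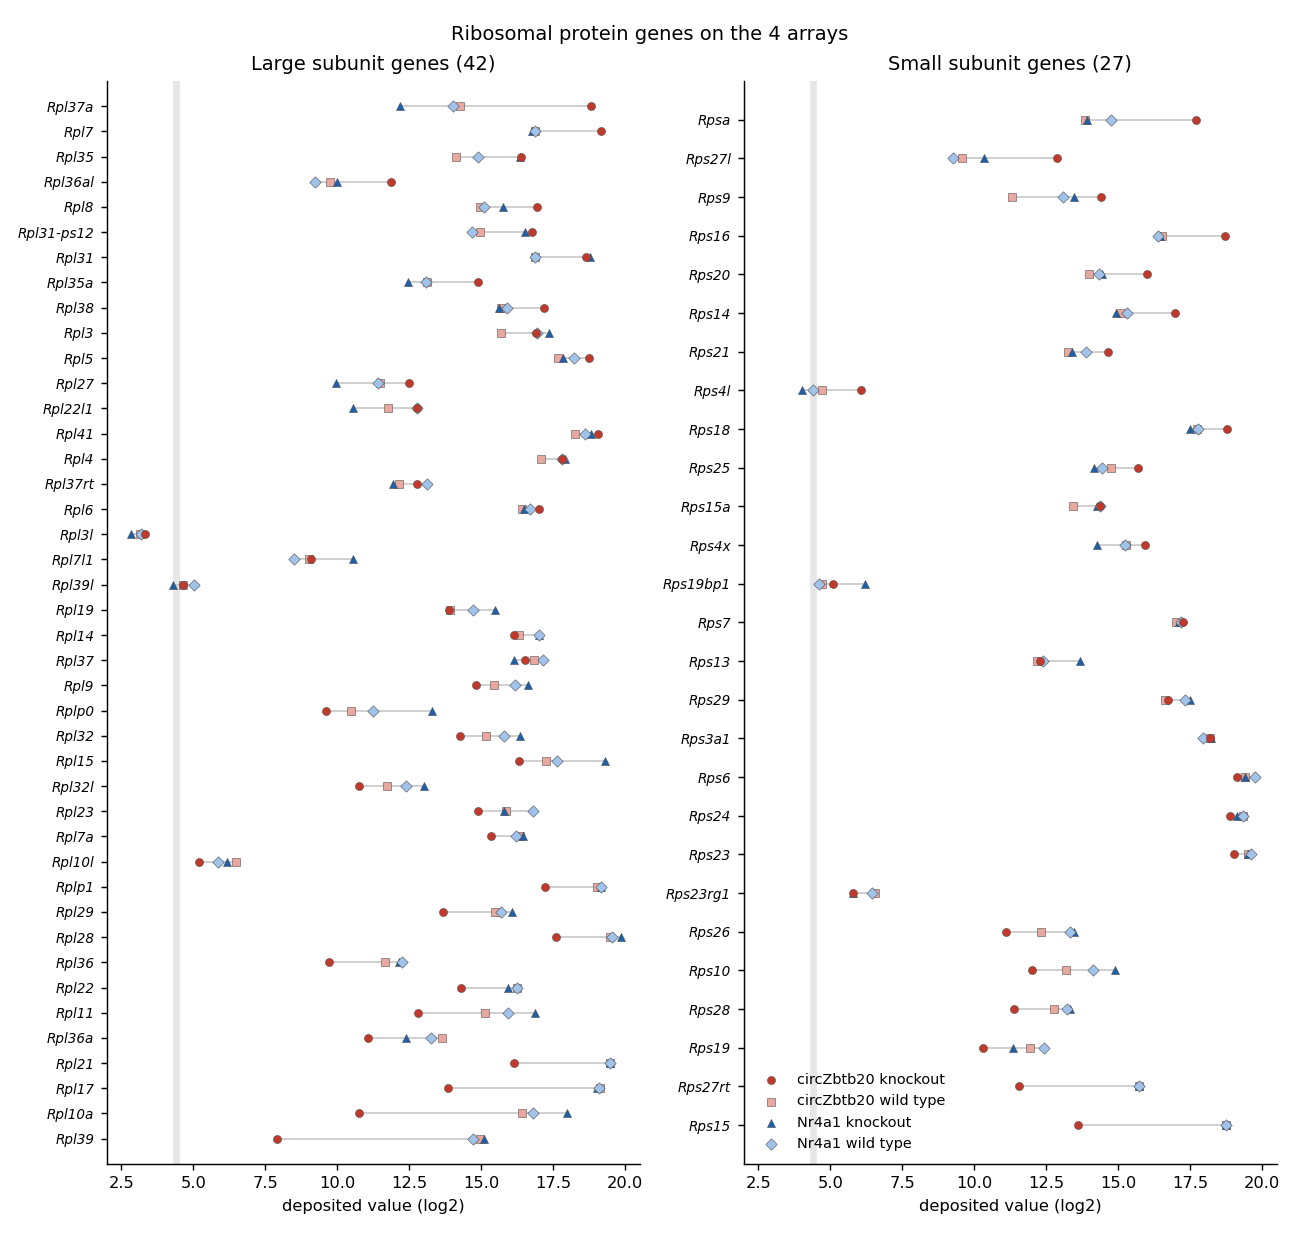
Deposited log2 values (horizontal axis) of the 42 large subunit genes (left) and 27 small subunit genes (right), 1 marker per array and a grey line over the range; genes run down the page from the highest to the lowest circZbtb20 difference, and the grey band is the range of the array medians, 4.34 to 4.51. The circZbtb20 knockout (red circles) stands at the right end for genes at the top and at the left end for genes at the bottom, while the other 3 arrays mostly lie close together.

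The tunnel through which the new protein leaves the ribosome is lined by Rpl4, Rpl17 and Rpl39, and this trio holds the lowest difference of the set. Rpl39 was at 7.90 in the circZbtb20 knockout and 14.95 in its wild type, and at 15.08 in the Nr4a1 knockout and 14.70 in its wild type. The circZbtb20 knockout was alone at the low end, with a difference of -7.05 from its wild type and -6.80 from the lowest of the other arrays. Rpl17 was at 13.83 in the circZbtb20 knockout and 19.13 in its wild type, and at 19.01 and 19.08 in the Nr4a1 pair. Again 3 arrays lay within 0.12 of each other and the circZbtb20 knockout lay below them, with a difference of -5.30 from its wild type. Rpl4 went the other way by a small amount, at 17.80 against 17.08, a difference of 0.72 that did not reach the 2-fold size and was 0.00 against the other wild type.

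Of the genes of the stalks and of the 5S particle, Rpl10a, Rplp1 and Rpl11 were called lower and Rpl5 higher. Rpl10a, the protein of the L1 stalk beside the exit site for tRNA, was at 10.76 in the circZbtb20 knockout and 16.40 in its wild type, and at 17.97 in the Nr4a1 knockout and 16.80 in its wild type. Its difference in the circZbtb20 pair was -5.64, and the knockout value stood apart from the 3 others. Rplp1, of the stalk that recruits translation factors, was lower, with a difference of -1.80, at 17.21 against 19.01, and Rplp0, the base on which that stalk is built, was at 9.60 against 10.49, a difference of -0.89 that was not called. Rpl11, which binds 5S rRNA together with Rpl5 and can inhibit Mdm2, was at 12.79 in the circZbtb20 knockout and 15.13 in its wild type, lower, with a difference of -2.34. Its partner Rpl5 was higher by 1.09, at 18.74 against 17.65, but by 0.51 against the other wild type.

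Other large subunit genes on the low side were Rpl21 and Rpl36a. Rpl21 stood at 16.15 in the circZbtb20 knockout and read 19.48 on each of the 3 other arrays, a difference of -3.33. Rpl36a was at 11.06 in the circZbtb20 knockout against 13.63 in its wild type, and at 12.40 in the Nr4a1 knockout and 13.24 in its paired wild type, so that the circZbtb20 knockout was lowest, with a difference of -2.57. The remaining lower genes of the large subunit lay between -1.03 and -1.95.

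On the high side of the large subunit, Rpl37a, a zinc-binding ribosomal protein, stood farthest out. It was at 18.82 in the circZbtb20 knockout and 14.25 in its wild type, and at 12.16 in the Nr4a1 knockout and 14.00 in its wild type. The knockouts lay on opposite sides of the wild types, with differences of 4.57 and -1.84. Rpl7 was at 19.17 in the circZbtb20 knockout and 16.88 in its wild type, higher by 2.29, and the Nr4a1 pair was at 16.76 and 16.88. Rpl35, at the mouth of the tunnel, was higher by 2.28, at 16.39 against 14.11, and by 1.5 when set against the other one. Rpl8, which lies close to the catalytic centre for peptide bonds, was higher by 1.97, at 16.93 against 14.96.

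In the small subunit the lowest difference was that of Rps15, a protein of the subunit's head near the decoding site. It stood at 13.62 in the circZbtb20 knockout and read 18.75 on each of the other arrays, a difference of -5.13. Rps27rt, a retrocopy of Rps27, stood at 11.57 in the circZbtb20 knockout and read 15.73 on each of the others, a difference of -4.16. Rps19, whose human counterpart is mutated in Diamond-Blackfan anaemia, was at 10.31 against 11.95, lower, with a difference of -1.64. At the side where mRNA leaves, Rps28 was lower, with a difference of -1.39, and so was Rps26, with -1.21, or -2.21 against the other wild type, while Rps14 of the same platform was higher by 1.87. Rps10 was also lower, with a difference of -1.21, or -2.14 against the other wild type.

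Rpsa, a small subunit protein also known as the laminin receptor precursor, led the other direction. Rpsa was at 17.69 in the circZbtb20 knockout and 13.83 in its wild type, and at 13.92 in the Nr4a1 knockout and 14.76 in its wild type. The circZbtb20 knockout was the high array, by 3.86 over its wild type and 2.93 over the other one. Rps27l, a paralog of Rps27 known as a p53 target, was at 12.88 against 9.58, higher by 3.30, and the Nr4a1 pair was at 10.33 and 9.25. Rps9, near the mRNA entry, was at 14.39 against 11.31, higher by 3.08, but its value depended on the wild type, since the Nr4a1 wild type stood at 13.09 and left a difference of 1.30. Rps16, whose tail reaches the peptidyl site, was higher by 2.18 and Rps20, of the head, by 2.02. Rps6, the substrate of S6 kinase, was at 19.14 against 19.40, a difference of -0.26.

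Set against both wild types, the circZbtb20 knockout was higher for 16 of the 69 genes and lower for 17, where 22.3% and 14.4% of the genes past both filters were. Of the 39 calls, 33 therefore held against both wild types, and Rpl3, Rpl5, Rpl7a, Rpl10l, Rps18 and Rps21 did not reach the size against the other one. The difference of Rpl3 was 1.19 from its own wild type and -0.04 from the other. Apart from the genotype pairs, the circZbtb20 knockout lay at least 1 above the highest of the 3 other arrays for 12 genes and at least 1 below the lowest for 17. The Nr4a1 knockout lay so far above for 6 genes and below for 3. The circZbtb20 wild type was 1 below the others for 2 genes, Rps9 and Rpl3, and above them for 0. Among the 12232 genes that reached the median on an array, these shares were 12.9% and 8.51% for the circZbtb20 knockout, 18% and 10.4% for the Nr4a1 knockout, and 1.1% below and 1.83% above for the circZbtb20 wild type. These shares, and those against both wild types, were not taken among genes of like level. For 42 of the 69 genes the 3 arrays other than the circZbtb20 knockout lay within 1 of each other.

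Equal values on several arrays bear on some of these differences. The highest value of the gene was the same, to 2 decimals, on 3 arrays for Rpl21, Rps15 and Rps27rt and on 2 arrays for Rplp1 and Rps24, which makes 5 of 69 genes. Over all genes, 1.12% had their highest value on 2 or more arrays, but 58.3% of the 12 genes with a mean of 19 to 20 did and 3.59% of the 167 genes with a mean of 15 to 19. Such a shared value may be the top of what the row can show, in which case a difference from it is a bound, which was not tested. Without these 5 genes the median difference in the circZbtb20 knockout was -0.02 for the large subunit and 0.515 for the small subunit.

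**Figure D2:**
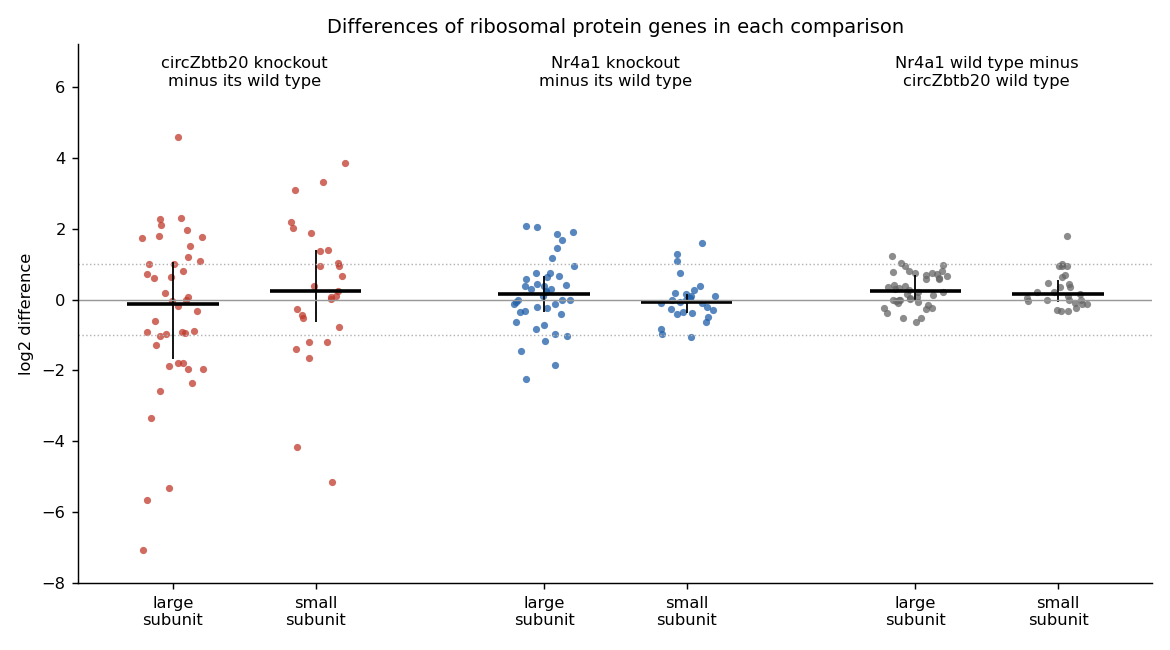
Log2 differences (vertical axis) of the large and the small subunit genes in the 3 comparisons, 1 point per gene, with the median as a thick bar and the interquartile range as a thin line; dotted lines mark the 2-fold size. Points of the circZbtb20 comparison run between -7.05 and 4.57, those of the Nr4a1 comparison between -2.24 and 2.07, and those between the wild types between -0.62 and 1.78.

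The Nr4a1 comparison sets this knockout beside its wild type, but its arrays were unlike in cell markers. All 11 T cell markers were called higher in the knockout, and 10 of 11 ILC3 markers lower. Dependence on the receptor and a different cell content cannot be told apart in this pair. Differences of ribosomal protein genes were mostly small in this pair. Of the 42 genes of the large subunit 7 were higher and 5 lower, and of the 27 of the small subunit 3 were higher and 1 lower. By the same rule, 31.9% of the 11197 genes past the filter were higher and 20.8% lower. Median differences were 0.155 for the large subunit and -0.06 for the small subunit, against 0.29 over all genes past the filter. Over the 69 genes the SD of the differences was 0.87, against 2.20 over all genes past the filter. In the range of levels from 10.03 to 18.24 the contrast was wider: all genes of that range had an SD of 3.51, with 34.6% higher and 32.4% lower, and the 55 ribosomal protein genes an SD of 0.90, with 14.5% higher and 10.9% lower. No test of this contrast was possible with 1 array per genotype. With the arrays quantile-normalized again 8 genes were higher and 8 lower, and with each array centred on its median 11 and 4. Against the other wild type they were 18 and 5, so the balance of directions depends on these choices. Of the called ribosomal protein genes 50%, 73.3% and 78.3% were higher in these settings, beside 62.5% at first. Over called genes of all kinds these shares were 56.3%, 66.4% and 61.6%, beside 60.6%.

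Rplp0, the base of the stalk, was the highest core gene. Rplp0 was at 13.28 in the Nr4a1 knockout and 11.23 in its wild type, and at 9.60 in the circZbtb20 knockout and 10.49 in its wild type. The Nr4a1 knockout was the high array, by 2.05 over its wild type and 2.79 over the other one. Rpl31, at the mouth of the tunnel, was at 18.76 in the Nr4a1 knockout and 16.87 in its paired wild type, higher by 1.89. Rpl15 was at 19.31 against 17.62, higher by 1.69, and Rpl35 was at 16.33 against 14.89, higher by 1.44, or 2.22 over the other wild type. Rpl10a, the lowest but for Rpl39 in the circZbtb20 knockout, was higher here by 1.17.

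In the small subunit 3 genes were higher in the Nr4a1 knockout: Rps13 by 1.28, at 13.66 against 12.38, Rps27l by 1.08, and Rps19bp1 by 1.60, at 6.21 against 4.61. For Rps27l the size was not reached against the other wild type, at 0.75, nor after quantile normalization, at 0.72. Rps19bp1 is not a ribosomal protein and Rps27l is a paralog outside the core genes, which leaves Rps13 as the core gene called higher. Rps19 was the only gene of the small subunit called lower, with a difference of -1.07, at 11.34 against 12.41, and its difference was -0.61 against the other wild type. Rpsa was at 13.92 against 14.76, a difference of -0.84, Rps14 differed by -0.41, Rps26 by 0.16 and Rps6 by -0.36, none of which was called. Rps15 and Rps27rt were equal in both arrays of this pair.

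Lower genes of the large subunit in the Nr4a1 knockout were Rpl22l1, Rpl37a, Rpl27, Rpl37rt and Rpl23. Rpl22l1, the paralog of Rpl22, was at 10.54 in the Nr4a1 knockout and 12.78 in its wild type, and at 12.75 in the circZbtb20 knockout and 11.76 in its wild type. The Nr4a1 knockout was lowest, with differences of -2.24 from its wild type and -1.22 from the other one. Rpl37a was lower, with a difference of -1.84, and Rpl27, at 9.95 against 11.40, with -1.45. Rpl37rt at -1.17 and Rpl23 at -1.02 lost the size against the other wild type, where they differed by -0.19 and -0.08. The exit-tunnel genes differed by 0.38 for Rpl39, -0.07 for Rpl17 and 0.11 for Rpl4, and the 5S genes by 0.94 for Rpl11 and -0.41 for Rpl5, none of them called. Against both wild types 9 of the 69 genes were higher and 3 lower, where 28.4% and 15.7% of genes past both filters were.

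Between the wild types, which serve as the background, 4 genes were higher in the Nr4a1 wild type and 0 lower, where the rule called 8.48% and 6.77% of all 10698 genes past the filter. These were Rps9 by 1.78, Rpl3 by 1.23, Rpl22l1 by 1.02 and Rps26 by 1.00. Rps9 was at 13.09 in the Nr4a1 wild type against 11.31 in the circZbtb20 wild type. Most other genes leaned the same way by less, since 44 of 69 were higher in the Nr4a1 wild type by any amount, with medians of 0.25 for the large and 0.16 for the small subunit against 0.05 over all genes past the filter. The SD of the differences over the 69 genes was 0.48. The knockout differences of Rps9, Rpl3, Rpl22l1 and Rps26 are therefore the ones that depend most on which wild type is taken. The wild types also differed in cell markers, so this pair is not a pair of replicates. In the Nr4a1 wild type all 10 acinar markers were lower and 6 of 7 epithelial markers higher. Of 11 T cell markers 6 were higher there and 1 lower.

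**Figure D3:**
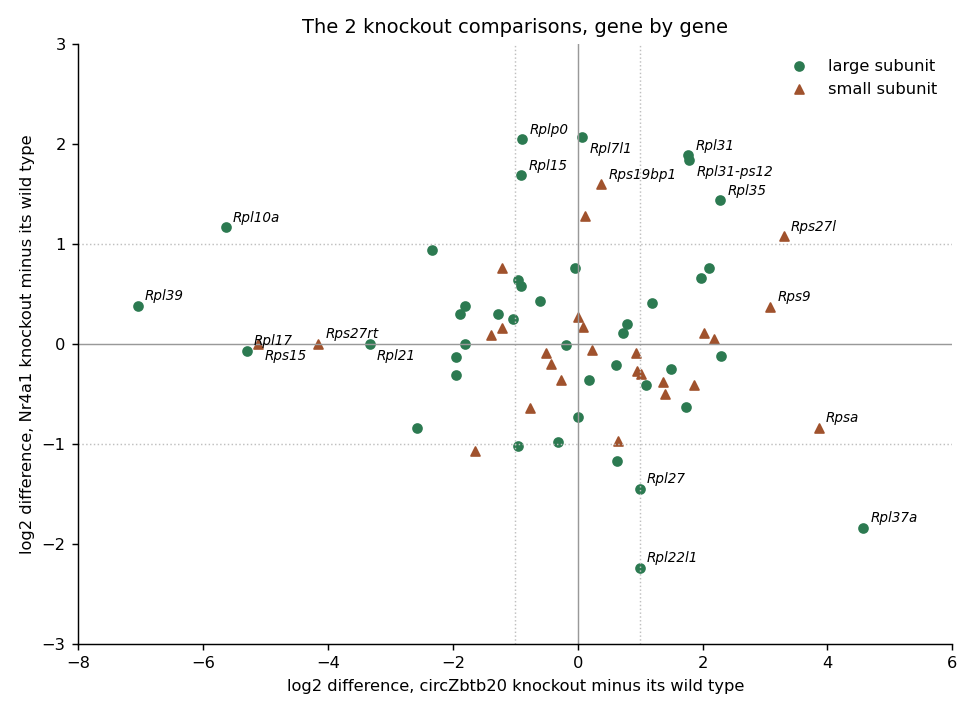
Log2 difference of each gene in the Nr4a1 comparison (vertical axis) against that in the circZbtb20 comparison (horizontal axis), for large subunit genes (circles) and small subunit genes (triangles), with dotted lines at the 2-fold size. Most points spread along the horizontal axis within 1 of 0 on the vertical one; Rpl31, Rpl35 and Rps27l lie high on both axes and Rpl37a at 4.57 and -1.84.

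The knockout comparisons share no array. Across the 69 genes their differences had a Pearson r of -0.11 and a Spearman rho of -0.10, given as a description over genes, which are not independent replicates, and the r over 10090 genes past both filters was 0.10. Called in both comparisons were 7 genes. Rpl31, its near copy Rpl31-ps12, Rpl35 and Rps27l were higher in both, 20% of the 20 genes higher in the circZbtb20 knockout and 40% of the 10 higher in the Nr4a1 knockout. Among the 10090 genes, those higher in both made up 37.4% and 32.3% of the corresponding lists. The Nr4a1 call of Rps27l was lost against the other wild type, as given above. Rps19 was lower in both, 1 of 19 and 1 of 6, or 5.26% and 16.7%. Over the 10090 genes these shares were 31.6% and 29.5%. The Nr4a1 call of Rps19 was also lost against the other wild type, at -0.61. Rpl37a was higher in the circZbtb20 knockout and lower in the Nr4a1 knockout, and Rpl10a the reverse. For Rpl37a the shares were 5% and 16.7%, beside 20.8% and 26.6% over the 10090 genes. For Rpl10a they were 5.26% and 10%, beside 28.7% and 18.2%. Across the 62 ribosomal protein genes with a mean level of at least 10.03, levels of the Nr4a1 knockout correlated with those of its wild type at r = 0.95, those of the circZbtb20 knockout with its wild type at 0.66, and those of the wild types with each other at 0.98. For all 1568 genes above that level, the same correlations were 0.25, 0.62 and 0.95. These are descriptions across genes, and the points share their arrays.

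Paralogs and copies were set beside the genes they resemble. The Rpl36a pair parted in the circZbtb20 knockout: Rpl36a was lower, with a difference of -2.57, while Rpl36al, a copy that encodes nearly the same protein, was at 11.86 against 9.76, higher by 2.10. In the Nr4a1 knockout the pair differed by -0.84 and 0.76, short of the 2-fold size. Rpl22, known in mice to be required for normal development of alpha-beta T cells and to repress its paralog, was at 14.29 in the circZbtb20 knockout against 16.24 in its wild type, lower, with a difference of -1.95, beside 0.99 for Rpl22l1. That 0.99 was -0.03 against the other wild type, since Rpl22l1 differed between the wild types. In the Nr4a1 knockout Rpl22 differed by -0.31 and Rpl22l1 by -2.24. Rpl39l, at 4.66 on both circZbtb20 arrays, was near the array medians, and Rpl3l, at 3.33 against 3.15, was below them on all arrays and passed the filter in no comparison. Rps4l, annotated as a transcribed pseudogene, was higher by 1.37 at a low level, at 6.08 against 4.71, and Rpl10l lower, with a difference of -1.28, at 5.21 against 6.49, or -0.66 against the other wild type. Rpl7l1, which is not part of the ribosome in spite of its name, differed by 0.07 in the circZbtb20 knockout and was higher by 2.07 in the Nr4a1 knockout, at 10.55 against 8.48, where Rpl7 itself differed by -0.12.

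Probes may not separate near-identical copies, and whether they do here was not tested. Rpl31-ps12 differed by 1.79 in the circZbtb20 knockout and 1.84 in the Nr4a1 knockout, next to 1.77 and 1.89 for Rpl31. Rpl32l differed by -0.95 and 0.64, next to -0.91 and 0.58 for Rpl32. Each of these counts as a gene of its own above, although a pair may be a single signal. Rpl37rt did not follow Rpl37 in the circZbtb20 knockout, with 0.63 beside -0.32.

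**Figure D4:**
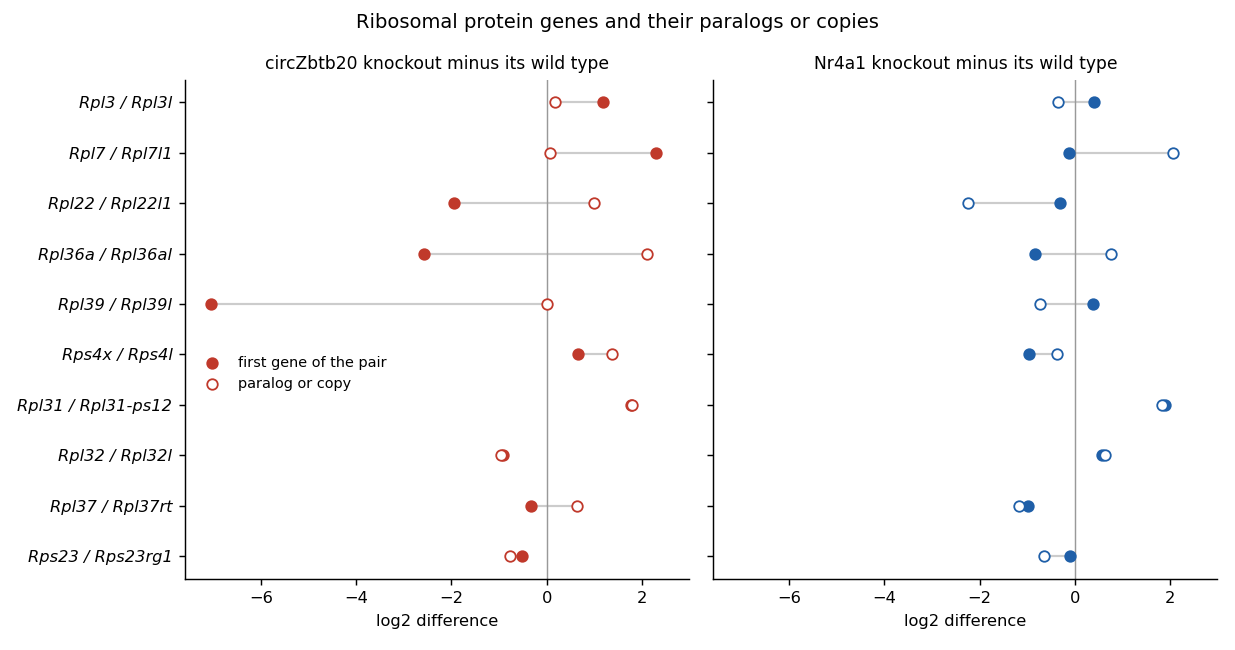
Log2 differences (horizontal axis) of 10 ribosomal protein genes (filled) and their paralogs or copies (open) in the circZbtb20 comparison (left) and the Nr4a1 comparison (right), each pair joined by a line. Rpl36a and Rpl36al lie on opposite sides of 0 in the circZbtb20 comparison, at -2.57 and 2.10, while Rpl31 and Rpl32 coincide with their copies.

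Other genes of ribosome production were more often higher than lower in the Nr4a1 knockout, on the array with the T cell markers. Assembly factors of the ribosome, 57 genes, counted 32 higher and 3 lower, and their median difference was 1.35. Over all genes past the filter, 31.9% were higher and 20.8% lower, and the median was 0.29. Wdr12, of the complex that matures the large subunit rRNA, was at 7.76 against 3.38, higher by 4.38, while Riok1, a kinase of late small subunit maturation, was at 9.40 against 13.73, lower, with a difference of -4.33. Dkc1, the pseudouridine synthase of rRNA, and Utp4 were both higher by 3.23. Among 11 genes of the RNA polymerase I machinery, which transcribes rRNA, 7 were called higher and 0 lower, the median being 1.37, and Ubtf, which keeps rRNA genes active, was higher by 3.61. Mitochondrial ribosomal proteins, 76 genes, had 41 higher and 0 lower at a median of 1.13, and the 50 proteasome genes had 35 higher and 1 lower at a median of 1.87. These medians lie beside 0.155 and -0.06 for the subunits of the cytosolic ribosome, and the difference was not tested.

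In the circZbtb20 knockout, assembly factors had 15 of 57 higher and 9 lower, and a median difference of 0.17. This is near the background of 27.3% higher and 19.4% lower with a median of 0.17 over all genes past the filter. Nmd3, the export adaptor of the large subunit, was higher by 4.17, Pes1 by 3.80 and Utp14a by 2.87, while Rrp9 was lower, with a difference of -2.71. Of the 11 polymerase I genes 3 were higher and 1 lower: Polr1b at 4.29, Taf1a at 2.63, Taf1b at 2.14 and Polr1a at -1.80. Their median was 0.66, but 0.13 against the other wild type. Mitochondrial ribosomal proteins had 28 of 76 higher and 8 lower at a median of 0.355, and the proteasome 23 of 50 higher and 4 lower at a median of 0.905. Beside these stand 20 higher and 19 lower cytosolic ribosomal protein genes. They became 18 and 23 against the other wild type, 21 and 23 after quantile normalization and 24 and 18 after median centring. Of the called ribosomal protein genes 51.3% were higher at first, and 43.9%, 47.7% and 57.1% under these settings in turn. Over called genes of all kinds the share that was higher also moved, from 58.5% to 55.8%, 51.9% and 62.5%.

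Other genes whose mRNAs carry a TOP tract were also divided in the circZbtb20 knockout. Among 13 measured, 2 were called higher and 4 lower, or 15.4% and 30.8% beside 27.3% and 19.4% of all genes past the filter, and the median difference was -0.12. Eef2, the elongation factor that moves the ribosome along, was at 10.75 in the circZbtb20 knockout and 17.31 in its wild type, and at 18.81 and 18.40 in the Nr4a1 pair. The circZbtb20 knockout was the low array, with a difference of -6.56. Eef1b2, a subunit of the exchange factor of elongation factor 1, was lower, with a difference of -3.70, or -5.65 against the other wild type, and so was Tpt1, with -1.93. Btf3 was higher by 1.72, but by 0.98 over the other wild type, short of the size. In the Nr4a1 knockout 5 of the 13, or 38.5%, were higher and 0 lower, beside 31.9% and 20.8% of all genes past the filter. Eef1g differed by 3.06, Eif4b by 2.20, Eif3h by 1.31, and Eef1b2 by 1.31, or 3.26 over the other wild type. The median was 0.50, or 1.35 over the other wild type. Eef1a1 was at the highest value of the table on 3 arrays and Pabpc1 at 19.50 on all 4, the same shared top values as described above. Fau, a ribosomal protein gene outside the symbol rule that also encodes a ubiquitin-like domain, differed by 0.83 in the circZbtb20 knockout and -0.73 in the Nr4a1 knockout.

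Among 11 measured regulators of TOP mRNAs and of ribosomal protein genes, 2 were called higher and 3 lower in the circZbtb20 knockout. That is 18.2% and 27.3%, beside 27.3% and 19.4% of all genes past the filter. Rps6kb2, an S6 kinase, was lower, with a difference of -6.75, at 5.13 against 11.88, and so was Myc, with -2.63, or -5.44 against the other wild type. Rptor, the Raptor subunit of mTOR complex 1, was higher by 3.35, at 8.10 against 4.75, and Tsc1, which restrains that complex, by 2.12. In the Nr4a1 knockout 4 were higher and 2 lower, or 36.4% and 18.2%, near the share over all genes. Eif4ebp2 was higher by 3.50, Larp4 by 2.39 and Mtor by 2.23, while Myc was lower, with a difference of -4.11, or -1.30 when set against the circZbtb20 wild type.

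**Figure D5:**
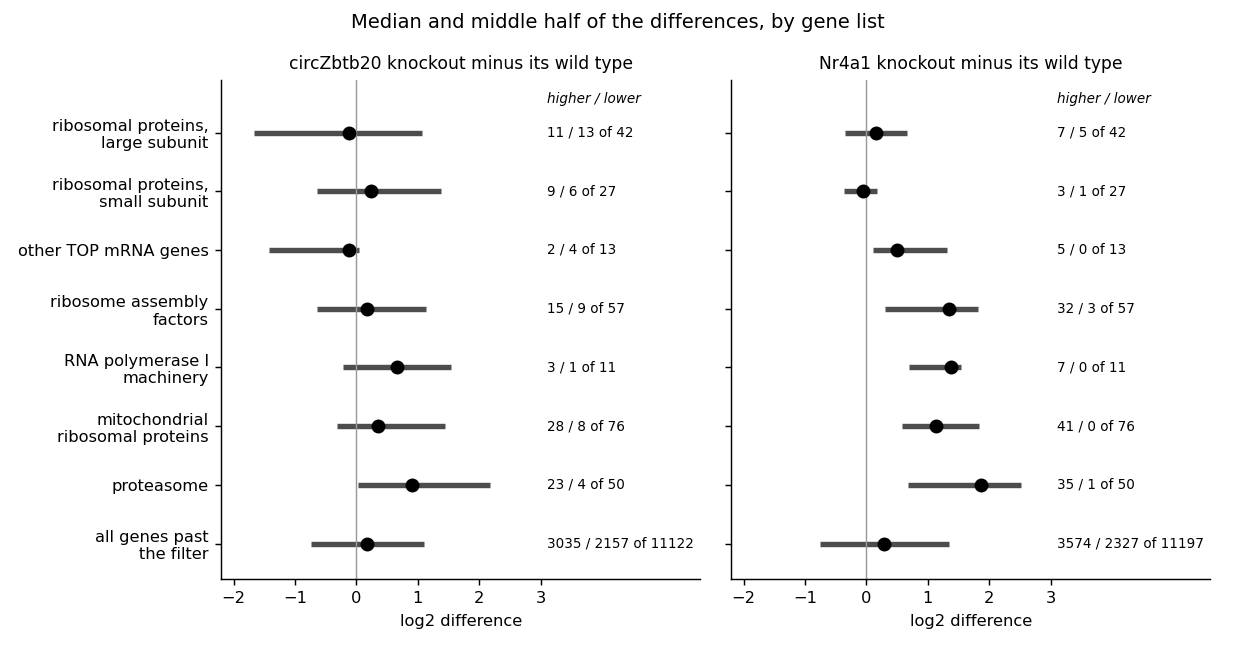
Median (dot) and interquartile range (bar) of the log2 differences (horizontal axis) of each gene list in the circZbtb20 comparison (left) and the Nr4a1 comparison (right), with the number of genes called higher and lower beside it. In the Nr4a1 comparison the subunits of the cytosolic ribosome are centred at 0.155 and -0.06, while assembly factors are centred at 1.35 and mitochondrial ribosomal proteins at 1.13.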

How the data were processed

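The deposited values are log2 expression values of 4 arrays, 1 per genotype. Per the submitters' processing notes the authors used RMA and Affymetrix Power Tools. RMA is meant to make the arrays' distributions alike, so a change of total RNA cannot be seen. The deposited distributions were not fully alike. Array medians lay between 4.34 and 4.51, and a further quantile normalization moved some values. The scale of the deposited values was not checked against raw array data, so the 2-fold size rests on the log2 label. The design text names another Affymetrix platform than the probe annotation. For versions, settings and genome build, nothing was given in the sources used here. Samples were grouped by title. Of 22205 rows, 19571 had 1 gene symbol in the platform's annotation table, 2634 had none and 0 had several, and the brightest row stood for a gene. Each of the 69 genes had 1 row and a RefSeq gene with the same symbol.

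No test was run. Differences, counts by the rule of size and medians were computed in Python 3.11.15 with pandas 2.3.3. The rule was also run on simulated arrays with known shifts and little noise. That checks the computation only and not how often the rule calls noise on these arrays. Within each comparison and subunit, the 6 highest and 6 lowest called genes, fixed structural genes and paralog pairs were named, and up to 4 called genes of each other list. Eef1a1, Pabpc1, Rps24 and further ribosomal protein genes given in a clause were named after their values were seen. The set and the lists were chosen with earlier results of these data known. Alternatives were the other wild type, quantile normalization, median centring, the mean of rows, other filters, a log2 size of 2, core genes alone and leaving out genes at shared top values. B cell, macrophage, epithelial and erythroid markers were also listed. On the 4 arrays their medians lay between 4.21 and 4.41 for B cells, 5.225 and 7.275 for macrophages and 4.39 and 6.93 for epithelium. The 1 measured erythroid gene lay between 3.86 and 4.95. In the Nr4a1 knockout all 7 epithelial, 5 of 6 macrophage and 2 of 5 B cell markers were called lower. The circZbtb20 knockout had 3 epithelial markers higher and 1 lower, 3 macrophage markers lower and 1 B cell marker higher. In the Nr4a1 wild type 6 epithelial, 3 macrophage and 1 B cell marker were higher than in the circZbtb20 wild type.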

Additional observations from a re-analysis of the deposited data

How the results depend on the processing

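No paired analysis was possible because each genotype has 1 array and the labels give no replicate numbers. Of 174 alternative medians and counts over the subunits, 151 stayed within the spread allowed and 23 moved. For a median the spread was 1 SD of the wild-type differences, 0.46 for the large and 0.51 for the small subunit. For a count it was 1.5 times. Medians under other filters or sizes could not move, and the SD exceeds every main median. No count could reverse, and a median only from a size of at least 1, which no main median reached. Some medians did change sign. In the Nr4a1 comparison the large subunit median went from 0.155 to -0.03 after quantile normalization, and the small one from -0.06 to 0.11 after median centring. In the circZbtb20 knockout the large subunit median was -0.635 against the other wild type and -0.61 with core genes alone. At a log2 size of 2 that knockout had 4 large subunit genes higher and 6 lower, and 5 small subunit genes higher and 2 lower. At this size the Nr4a1 knockout had 2 higher and 1 lower in the large and 0 and 0 in the small subunit, and the Nr4a1 wild type 0 higher in either. Against the other wild type 13 large and 5 small subunit genes were higher in the Nr4a1 knockout. Its count of lower small subunit genes was 2 after quantile normalization and 0 after median centring, and with core genes alone 3 large subunit genes were lower and 1 small subunit gene was higher. Between the wild types 1 gene of each subunit was higher after quantile normalization or median centring, and 1 large subunit gene with core genes alone. Median centring shifted the median of all genes by 0.10 in the circZbtb20 and 0.17 in the Nr4a1 comparison, and quantile normalization by -0.11 and -0.12. The cause of these moves was not tested, except that a higher size and fewer genes lower a count by construction. Of 276 values of single genes 238 stayed within the spread and 37 moved. Rpl3 reversed, at -0.04 in the circZbtb20 knockout against the other wild type. No gene of the set has several rows or stands at the highest value of the table, so these alternatives could not change it.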
